A study of Mus musculus with 8 samples.

Results

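The genes described here are the 10 genes that write H3K9 methylation or carry the proteins that read and use it: Suv39h1, Suv39h2, Setdb1, Ehmt1, Ehmt2, Cbx1, Cbx3, Cbx5, Trim28 and Atrx. They were listed by name, with no measured value in the rule but with earlier results of these data known, from the 141239 features counted, of which 53465 are Ensembl genes and 87774 are NONCODE long non-coding RNA genes. RNA was sequenced from hearts of 2-week-old Lmna-/- mice of mixed strain, 5 hearts given wild-type LMNA by adeno-associated virus serotype 9 (AAV9-LMNA) and 3 left untreated (untreated KO). Lmna encodes lamins A and C, proteins of the sheet under the nuclear envelope, and AAV9 is a viral vector that reaches heart muscle well in mice. All 8 hearts carry the Lmna knockout, so the comparison asks what differs between knockout hearts with and without the restored gene. The sources used here do not give the promoter and dose of the vector, the sex and litter of the mice, or whether each library is a separate animal. No wild-type heart and no heart given a control vector was analysed here, so effects of the virus itself and of the restored protein cannot be told apart. The p-values measure only the spread between these libraries, which may be partly technical.

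Methyl groups on lysine 9 of histone H3 mark silent chromatin. SUV39H1 and SUV39H2 place trimethyl marks mainly at pericentromeric repeats, SETDB1 places them at retroelements and silenced genes, and the partners GLP (Ehmt1) and G9a (Ehmt2) place mainly the mono- and dimethyl marks. TRIM28, also called KAP1, is brought to DNA by KRAB zinc finger proteins and in turn brings SETDB1. The heterochromatin protein 1 family, HP1-beta (Cbx1), HP1-gamma (Cbx3) and HP1-alpha (Cbx5), binds methylated lysine 9 through a chromodomain, and ATRX works with DAXX to load histone H3.3 into heterochromatin. Much H3K9-methylated chromatin lies against the nuclear lamina, to which it is held by lamins and inner nuclear membrane proteins.

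The targeted gene separated the groups. Lmna stood at 393, 227, 325, 312 and 747 CPM in the AAV9-LMNA libraries, against 46.4, 68.7 and 32.3 CPM in the untreated KO libraries, a log2 fold change of 3.03 ± 0.46 (SE) with an adjusted p of 0.00486 (edgeR quasi-likelihood test). CPM is the usual read count scaled to library size, here over the counts on features and adjusted by the trimmed mean of M-values. Counts on features ran from 21576949 to 26492443 in the AAV9-LMNA libraries and from 21439956 to 24021970 in the untreated KO libraries. Reads outside any feature made up 12.1% to 12.8% of reads in the AAV9-LMNA libraries and 16.8% to 24.7% in the untreated KO libraries, with 24.7% in KO replicate 6, 16.8% in KO replicate 7 and 18.4% in KO replicate 8. Heart muscle markers were abundant in every library, with 10 ventricular genes, of which 3 were called, summing to 60248 to 72659 CPM with AAV9-LMNA and 50158 to 76283 CPM in untreated KO. KO replicate 6 had the lowest summed fibroblast markers (1694 CPM, against 4565 to 7459 CPM with AAV9-LMNA). KO replicate 8 had the highest summed atrial markers (1009 CPM, against 72.9 to 192 CPM with AAV9-LMNA). KO replicates 6 and 7, at 95.6 and 83.3 CPM, lay within the AAV9-LMNA range of that sum. Of the atrial list, edgeR called 4 of 5 tested genes lower, DESeq2 called 1 and limma-voom 0.

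All 10 genes passed the filter on low counts, and 3 were called higher in AAV9-LMNA hearts than in untreated KO hearts: the methyltransferase gene Ehmt2, the HP1-beta gene Cbx1 and the corepressor gene Trim28, each by 1.21 to 1.29 fold. None was called lower by edgeR, by DESeq2 or by limma-voom, and 0 were lower at an unadjusted p under 0.05 with any of these tools. Of all 26717 features tested, 10.6% were called higher and 15% lower, but among the 13785 protein-coding genes 18.4% were called higher and 6.07% lower, and beside these shares the count of 3 shows nothing particular to the 10 genes. The median log2 fold change of the 10 genes was 0.20, with 8 above 0, beside -0.03 over all features and 0.21 over coding genes. The same 3 genes were those in which every AAV9-LMNA library lay above every untreated KO library, as did 13.8% of all features and 23.1% of coding genes. DESeq2 and limma-voom called the same 3 genes, while calling 14.6% and 11.4% of all features higher and 15.9% and 14.5% lower. These are bulk hearts, in which fewer cells of a type and less RNA per cell cannot be told apart.

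The sequence just before the start site is shown for the 3 called genes, from RefSeq, 250 bases each on build GRCm38.p6. All lie on the plus strand, Ehmt2 at chr17:34898224-34898473, Cbx1 at chr11:96788885-96789134 and Trim28 at chr7:13023902-13024151, where the RefSeq start lies inside the longer annotated span given further on. Capitals mark the GC box, GGGCGG on the strand shown or its reverse complement CCGCCC.
Ehmt2: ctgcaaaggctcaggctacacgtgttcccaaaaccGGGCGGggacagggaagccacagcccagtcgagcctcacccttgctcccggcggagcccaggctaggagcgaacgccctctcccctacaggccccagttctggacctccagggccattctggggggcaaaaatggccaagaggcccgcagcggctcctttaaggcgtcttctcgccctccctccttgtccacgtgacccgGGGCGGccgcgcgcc
Cbx1: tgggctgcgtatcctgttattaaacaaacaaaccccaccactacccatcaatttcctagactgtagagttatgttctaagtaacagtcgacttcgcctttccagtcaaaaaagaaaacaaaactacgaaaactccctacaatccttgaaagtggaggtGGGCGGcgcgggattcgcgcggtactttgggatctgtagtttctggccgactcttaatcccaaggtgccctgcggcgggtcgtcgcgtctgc
Trim28: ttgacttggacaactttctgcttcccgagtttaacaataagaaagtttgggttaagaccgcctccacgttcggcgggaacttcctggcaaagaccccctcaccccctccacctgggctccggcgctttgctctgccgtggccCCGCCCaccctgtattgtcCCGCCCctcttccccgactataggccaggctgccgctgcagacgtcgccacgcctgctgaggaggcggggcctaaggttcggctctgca
The 3 stretches hold 2, 1 and 2 GC boxes, in the order shown. Taking all 10 genes, 9 have at least 1 GC box in this window, Atrx being the exception, against 32.7% of 32851 RefSeq promoters of the same length. They are also rich in CpG, from 11 in Suv39h1 to 29 in Cbx3 apart from 6 in Atrx, where the median promoter has 6. The GC box itself holds a CpG, and promoters of like CpG content were not compared. A CCAAT box (CCAAT) was found on either strand in Suv39h1, Setdb1, Cbx5 and Atrx, and in 33.8% of all promoters. The GGAA-core ETS motif CCGGAAG matched in Setdb1 alone (6.91% of all promoters) and the E2F form TTTGGCGC in Cbx3 alone (0.417%). The letters TATAAA, which 12.4% of promoters hold, were in none of the 10 windows, nor were the NRF1 motif (0.782%) and the other E2F form TTTCCCGC (0.895%). Of the 7 genes that were not called, 6 thus also hold a GC box.

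Levels per kilobase of annotated exon spread widely among the 10 genes and, taken over all annotated exons, had the same order of means in both groups. Trim28 was highest, at a mean of 29.8 CPM per kilobase with AAV9-LMNA and 23.6 in untreated KO, followed by Ehmt2 at 20.1 with AAV9-LMNA and 16.6 in untreated KO. A middle range with AAV9-LMNA held Cbx5 at 12.2, Atrx at 10.3, Ehmt1 at 7.82, Cbx1 at 7.49 and Setdb1 at 5.88 CPM per kilobase, and in untreated KO it held Cbx5 at 10, Atrx at 9.83, Ehmt1 at 8.06, Cbx1 at 5.81 and Setdb1 at 5.44. Low levels were those of Suv39h1 (1.18 with AAV9-LMNA, 1.08 in untreated KO), Cbx3 (0.877 with AAV9-LMNA, 0.949 in untreated KO) and Suv39h2 (0.366 with AAV9-LMNA, 0.304 in untreated KO). The ranges of neighbours overlapped for Cbx5 and Atrx in both groups, for Ehmt1 and Cbx1 with AAV9-LMNA, and for Cbx1 and Setdb1 and for Suv39h1 and Cbx3 in untreated KO. The order depends on the length used: with the longest transcript in place of all exons, a choice added after seeing the data, Atrx came after Ehmt2, at 21.7 CPM per kilobase with AAV9-LMNA and 20.8 in untreated KO, Cbx1, Cbx5 and Ehmt1 changed places, and the groups no longer shared one order. On that scale Cbx3 stood below Suv39h1 with AAV9-LMNA (1.80 and 2.00 CPM per kilobase) and above it in untreated KO (1.94 and 1.83), with overlapping ranges in both groups.

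**Figure D1:**
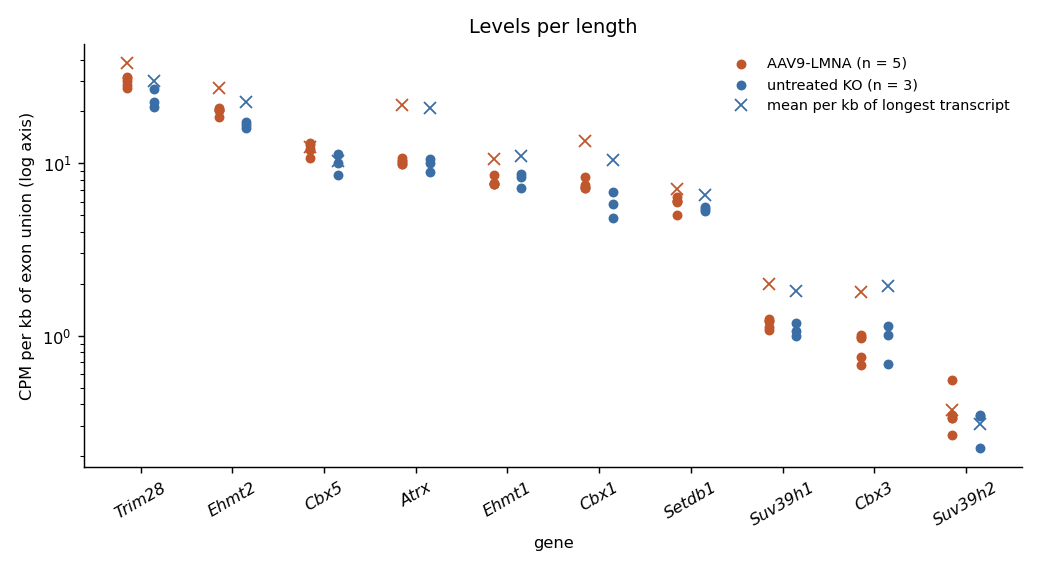
Level of each of the 10 genes in CPM per kilobase of exon (vertical log axis), with 1 point per library, AAV9-LMNA left of untreated KO, and crosses at the mean per kilobase of the longest transcript. Trim28 and Ehmt2 lead in both groups and Suv39h2 is last, at a mean of 0.366 with AAV9-LMNA and 0.304 in untreated KO.

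Of the dimethyl enzyme genes among the writers, Ehmt2 was called and Ehmt1 was not, and the difference between them was not tested. Ehmt2 (G9a; chromosome 17, 34898469 to 34914052 on GRCm38) had 112, 115, 111, 112 and 102 CPM in AAV9-LMNA hearts, against 90.8, 95.3 and 87.8 CPM in untreated KO hearts. All 5 treated libraries lay above all 3 untreated ones, though AAV9-LMNA replicate 5 sat well under the rest. The log2 fold change was 0.27 ± 0.08 (SE), or 1.21 fold, with a 95% interval of 0.09 to 0.46 and an adjusted p of 0.0344 by edgeR. Ehmt1 (GLP; chromosome 2, 24789928 to 24919614) had 61.3, 61.8, 62.7, 61.9 and 69.6 CPM with AAV9-LMNA, against 70.0, 58.5 and 67.8 CPM in untreated KO. Here the groups overlapped fully, and the log2 fold change was -0.04, with an interval of -0.25 to 0.16 and an adjusted p of 0.744 by edgeR. Within the pair, and counted per kilobase of exon, Ehmt1 made up 28.0% ± 2.02 (SD, n = 5) of the sum with AAV9-LMNA and 32.6% ± 2.87 (SD, n = 3) in untreated KO, a share that does not depend on library scaling. Those shares overlapped through AAV9-LMNA replicate 5, at 31.6%, and KO replicate 7, at 29.3%, and without KO replicates 6 and 8 the difference was -1.31 percentage points in place of -4.62.

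The trimethyl enzyme genes were not called, and 2 of them are weakly expressed here. Setdb1 (chromosome 3, 95323525 to 95357202) had 41.3, 34.5, 40.8, 41.3 and 43.6 CPM with AAV9-LMNA, against 36.3, 37.4 and 38.1 CPM in untreated KO. Every treated library except replicate 2 lay above the untreated ones, and replicate 2 lay below them. The log2 fold change was 0.11, with an interval of -0.11 to 0.33 and an edgeR adjusted p of 0.412. Suv39h1 (chromosome X, 8061171 to 8074760) had 6.45, 6.44, 5.69, 5.97 and 6.57 CPM with AAV9-LMNA, against 6.23, 5.25 and 5.58 CPM in untreated KO, with the groups overlapping and a log2 fold change of 0.13 (interval -0.21 to 0.47). An antisense gene, Gm14820, covers 14.6% of the annotated exon bases of Suv39h1, and the counts do not use strand, so reads of the 2 genes there cannot be told apart. On the same strand Gm37139 covers 0.259% of Ehmt1, and smaller overlaps on the other strand are those of Dclre1c (8.1%) and Gm13184 (1.88%) with Suv39h2 and of Cers2 (1.09%) and Gm37500 (3.63%) with Setdb1. Suv39h2 (chromosome 2, 3455815 to 3475031) rested on 25, 64, 31, 34 and 34 reads with AAV9-LMNA and on 24, 36 and 33 reads in untreated KO. Its interval of -0.38 to 0.93 around a log2 fold change of 0.28 was the widest of the 10. A difference of the size seen in Ehmt2 could thus not be told from 0. Without AAV9-LMNA replicate 2, the library with 64 reads, the log2 fold change was 0.07.

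The HP1 readers differed in level and in call. Cbx1 (HP1-beta; chromosome 11, 96789127 to 96808640) had 30.6, 35.8, 30.6, 31.8 and 31.1 CPM in AAV9-LMNA hearts, against 20.6, 29.0 and 24.8 CPM in untreated KO hearts. The treated libraries were tightly grouped apart from replicate 2, while the untreated ones were spread, with KO replicate 7 close under the treated values. The log2 fold change of 0.37 ± 0.12 (SE), or 1.29 fold, had an interval of 0.10 to 0.64 and an edgeR adjusted p of 0.0481, just inside the threshold. Cbx5 (HP1-alpha; chromosome 15, 103191544 to 103239816) had 108, 119, 115, 109 and 96.7 CPM with AAV9-LMNA, against 76.9, 103 and 91.4 CPM in untreated KO. All treated libraries but replicate 5 were above all untreated ones, and replicate 5 lay below KO replicate 7. Its log2 fold change of 0.28 ± 0.11 (SE) was as large as that of Ehmt2, but the adjusted p was 0.0849.

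Cbx3 (HP1-gamma; chromosome 6, 51470360 to 51483704) was low throughout, at 6.03, 5.91, 4.03, 4.51 and 5.80 CPM with AAV9-LMNA, against 6.07, 4.14 and 6.85 CPM in untreated KO. These values came from 85 to 156 reads with AAV9-LMNA and 97 to 151 reads in untreated KO, and the groups overlapped. The log2 fold change was -0.11, with an interval of -0.59 to 0.37 and an edgeR adjusted p of 0.717. The annotation lists 8 Cbx3 pseudogenes, of which Cbx3-ps1 to Cbx3-ps6 had 0 reads in every library, Cbx3-ps7 had 17 to 38 and Cbx3-ps8 had 0 to 4. Because a gene with near-identical copies can lose reads that align to several places, the level of Cbx3 is uncertain, and how much it lost was not tested. Per kilobase of exon, the Cbx5 share of the HP1 reads was 59.2% ± 1.96 (SD, n = 5) with AAV9-LMNA and 59.7% ± 0.574 (SD, n = 3) in untreated KO. Cbx1 supplied 36.5% ± 1.38 with AAV9-LMNA and 34.5% ± 1.30 in untreated KO, and Cbx3 4.29% ± 0.80 with AAV9-LMNA and 5.80% ± 1.86 in untreated KO, with overlapping ranges for each gene. The ranking rests on the length used: per kilobase of the longest transcript Cbx1 had 48.6% and Cbx5 44.9% with AAV9-LMNA, and Cbx1 had 46.0% and Cbx5 45.3% in untreated KO.

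**Figure D2:**
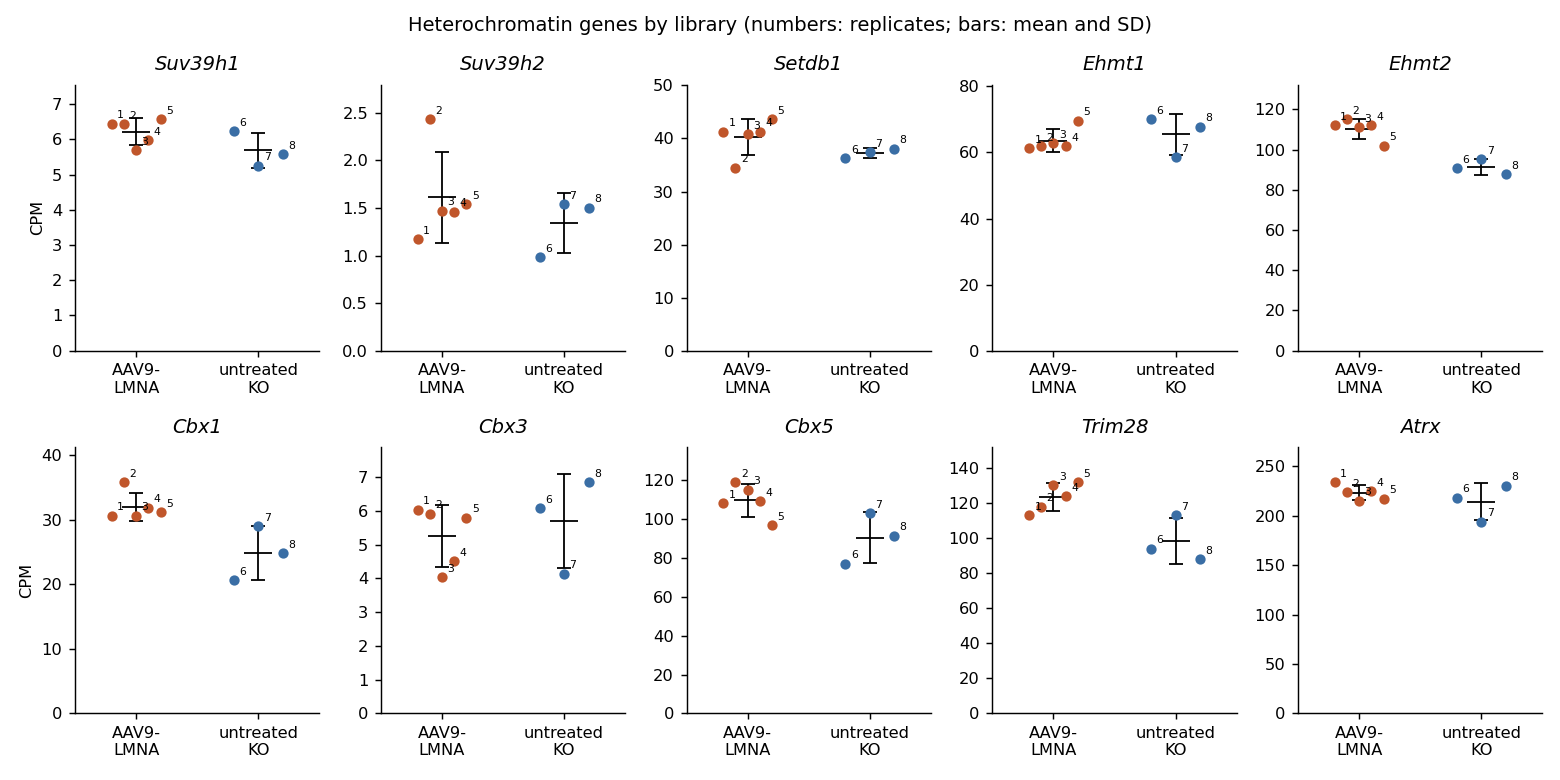
CPM of each of the 10 genes by library (vertical axes from 0), with AAV9-LMNA libraries on the left and untreated KO libraries on the right, small numbers naming replicates, and bars giving the mean and SD. The groups separate in Ehmt2, Cbx1 and Trim28, and in Trim28 the lowest AAV9-LMNA library and the highest untreated KO library both round to 113 CPM.

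Trim28 (KAP1; chromosome 7, 12999114 to 13031035) had 113, 118, 130.2, 124 and 132 CPM in AAV9-LMNA hearts, against 93.9, 113 and 87.9 CPM in untreated KO hearts. The groups only just separated, since AAV9-LMNA replicate 1 and KO replicate 7 were almost equal. The log2 fold change was 0.33 ± 0.10 (SE), or 1.26 fold, with an interval of 0.10 to 0.56 and an edgeR adjusted p of 0.0379. Atrx (chromosome X, 105797615 to 105929403), with the most reads of the 10, had 234, 224, 215, 225 and 217 CPM with AAV9-LMNA, against 218, 194 and 230.3 CPM in untreated KO. The groups overlapped, and its log2 fold change of 0.06 had an interval of -0.13 to 0.25 and an edgeR adjusted p of 0.624. With the length and GC correction the interval was -0.02 to 0.42.

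The 3 calls depended on single libraries of both groups. KO replicate 7 was the highest untreated library in Ehmt2, Cbx1, Cbx5 and Trim28, and it is the untreated library with the fewest reads outside features. Without it, 4 genes were called higher, Cbx5 joining at a log2 fold change of 0.39 (edgeR adjusted p = 0.0185), while 17.0% of all features were called higher. Without KO replicate 6 or without KO replicate 8, none was, in fits that called 7.31% and 7.52% of features higher. Leaving out AAV9-LMNA replicate 2, 3 or 4 also left none, with 6.08%, 5.77% and 6.83% of features called higher. Leaving out replicate 1 left Trim28 (adjusted p = 0.0406; 8.74% of features called higher), and leaving out replicate 5 left Ehmt2 (adjusted p = 0.0423; 7.09%). Over the 8 such fits the log2 fold change stayed between 0.25 and 0.32 for Ehmt2, 0.26 and 0.51 for Cbx1, 0.18 and 0.39 for Cbx5 and 0.27 and 0.46 for Trim28. Without KO replicates 6 and 8 together, none of the 10 was called while 3.81% of features were called higher, and the estimates were 0.23 for Ehmt2, 0.15 for Cbx1, 0.11 for Cbx5 and 0.15 for Trim28.

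The calls also depended on which features were kept and set the scale. With relative log expression scaling 11.9% of features were called higher and the 3 genes stayed called; with no filter on low counts 5.17% were and Cbx5 (adjusted p = 0.0495) took the place of Ehmt2 (0.0515). With at least 1 CPM required in 3 libraries 11.4% were, but none of the 10 genes, with edgeR adjusted p of 0.0549 for Ehmt2, 0.0645 for Cbx1 and 0.0565 for Trim28. NONCODE features took 2.07% to 2.27% of counts in the AAV9-LMNA libraries and 2.89% to 4.11% in the untreated KO libraries. With Ensembl genes alone, the log2 fold change of a feature tested in both fits changed by a median of -0.19. In that fit 660 Ensembl genes were called higher and 1307 lower, where the fit with NONCODE features called 2693 and 934 of the Ensembl genes. None of the 10 genes was called, while 4.33% of the Ensembl genes were called higher. The median of the 10 genes was then 0.00, with 5 above 0, and the estimates were 0.08 for Ehmt2, 0.18 for Cbx1, 0.09 for Cbx5 and 0.14 for Trim28. With a further correction for transcript length and GC content, the median change per feature from the fit of all features was -0.25. Cbx5 was then the only one of the 10 called, at a log2 fold change of 0.38 ± 0.09 (SE) and an edgeR adjusted p of 0.0327, in a fit that called 2.16% of features higher. Its longest transcript, 8803 bases, is at least as long as that of 95.7% of the coding genes tested. Atrx, at 97.6%, is longer still and was not called. In GC content Ehmt2 and Trim28 lay at percentiles 97 and 94.8 of the coding genes tested, Cbx1 at 24.5 and Cbx5 at 14.3. The part of length and GC content in these calls was not tested. In the same fit Cbx1, Ehmt2 and Trim28 were at 0.04, 0.16 and 0.13. The direction of Suv39h1 and Atrx turned under the Ensembl scale, to -0.07 and -0.14, and so did that of Setdb1, to -0.09. Suv39h1 was also below 0 under the length and GC correction, at -0.16.

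**Figure D3:**
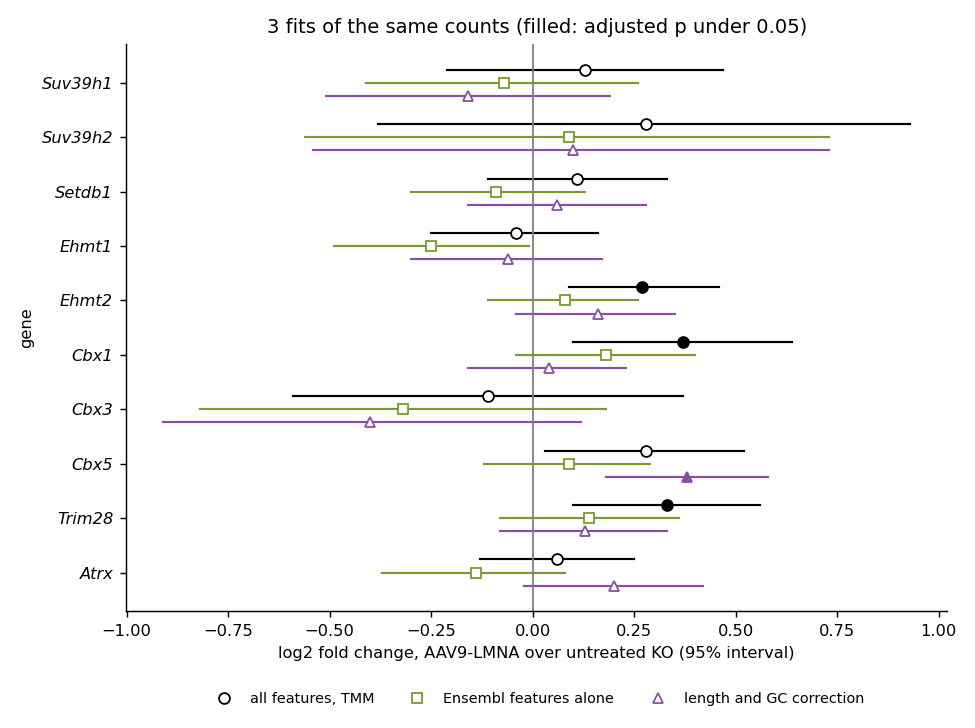
Log2 fold change of each of the 10 genes, AAV9-LMNA over untreated KO, with its 95% interval (horizontal lines), in 3 fits: all features, Ensembl genes alone, and Ensembl genes with a length and GC correction. Filled points are called, namely Ehmt2, Cbx1 and Trim28 in the first fit, none in the second and Cbx5 in the third.

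Proliferation and macrophage markers were low in KO replicates 6 and 8. Summed CPM of 14 proliferation genes was 76.1, 131, 136, 112 and 112 in AAV9-LMNA hearts, against 32.8, 98.7 and 51.6 CPM in untreated KO hearts. Only KO replicate 7 reached the range of the treated libraries. By edgeR 3 of the 14 were called higher, beside 10.6% of all features and 18.4% of coding genes. DESeq2 called 6 of the 14 and limma-voom 4. An unadjusted p under 0.05 was found for 6 by edgeR, 8 by DESeq2 and 9 by limma-voom. Over all 26717 features tested, in either direction, 10853 had an unadjusted p under 0.05 by edgeR, 11021 by DESeq2 and 11268 by limma-voom. Macrophage markers summed to 468 to 503 CPM with AAV9-LMNA, against 167, 573 and 270.1 CPM in untreated KO. Endothelial markers summed to 1589.9 to 2005 CPM with AAV9-LMNA and 1129 to 1944 CPM in untreated KO, with 2 of 8 called higher by edgeR. DESeq2 and limma-voom also called 2 each, and by each of the tools 6 of the 8 had an unadjusted p under 0.05. Of 32 tested markers of fibroblasts, smooth muscle, macrophages, lymphocytes and erythroid cells, 0 were called by edgeR, 4 by DESeq2 and 3 by limma-voom, and 3 by edgeR, 6 by DESeq2 and 12 by limma-voom had an unadjusted p under 0.05. Smooth muscle markers summed to 1539 to 2207 CPM with AAV9-LMNA and 1332 to 1750.0 CPM in untreated KO, lymphocyte markers to 18.6 to 20.3 CPM with AAV9-LMNA and 3.86 to 23.1 CPM in untreated KO, and erythroid markers to 396 to 1179 CPM with AAV9-LMNA and 448 to 964 CPM in untreated KO. No proliferation, macrophage or endothelial marker was at 0 in every library of a group. The part of proliferation, of these cell types and of reads outside features in the levels of Ehmt2, Cbx1 and Trim28 was not tested.

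Among 56 other genes of the same pathway, larger differences were found, and the 2 largest that were called ran downward. Of the 52 tested, 2 were called higher and 4 lower, against 10.6% and 15% of all features and 18.4% and 6.07% of coding genes, with a median log2 fold change of 0.02. Partners of the methyltransferases and of KAP1 held 3 of these 6 calls among 11 tested genes. Wiz, whose product is a zinc finger partner of G9a and GLP, had 15, 13.6, 13.6, 12.5 and 11.9 CPM with AAV9-LMNA, against 27.4, 20.9 and 24.8 CPM in untreated KO. It thus fell to 0.547 fold, with every treated library below every untreated one (log2 fold change -0.87 ± 0.13, SE; edgeR adjusted p = 0.00251). A lincRNA gene on the other strand, Gm26858, covers 22.1% of the exon bases of Wiz, where reads of the 2 genes cannot be told apart without strand. Reads that HTSeq set aside as ambiguous, a class for reads over more than 1 gene, made up 24.0% to 26.4% in AAV9-LMNA libraries and 21% to 24.9% in untreated KO libraries, and how many of them lay on Wiz was not tested. Prdm2, which encodes the PR-domain protein RIZ1, described as an H3K9 methyltransferase, had 51.3, 46.3, 47.5, 44.1 and 38.9 CPM with AAV9-LMNA, against 67.4, 72.4 and 65.6 CPM in untreated KO. It fell as well, again without overlap (log2 fold change -0.59 ± 0.10 SE, edgeR adjusted p = 0.00449). Such a separation, with every treated library below every untreated one, was seen in 4288 of 26717 features tested and in 911 of 13785 coding genes. Setdb2, a relative of Setdb1, rose, with 9.11, 12.7, 12.3, 11 and 12.5 CPM with AAV9-LMNA, against 9.11, 7.85 and 8.08 CPM in untreated KO (log2 fold change 0.47 ± 0.15 SE, edgeR adjusted p = 0.0435). Its groups met, since AAV9-LMNA replicate 1 and KO replicate 6 were equal to the digits shown.

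The calls of Wiz and Prdm2 were kept in all 8 fits without 1 library and in all 8 other settings. Their estimates with Ensembl genes alone were -1.08 for Wiz and -0.78 for Prdm2, and with the length and GC correction -0.81 and -0.51. Prdm16 and Atf7ip of the same list were called lower with Ensembl genes alone and without KO replicate 7. Prdm16 was also called lower with at least 1 CPM in 3 libraries. Mecom was called higher with no filter on low counts and without KO replicate 8. Setdb2 was called in 2 of the 8 fits without 1 library, those without AAV9-LMNA replicate 1 (adjusted p = 0.0268) and without KO replicate 6 (0.0419). Its call was lost with no filter on low counts (0.0508), with at least 1 CPM in 3 libraries (0.0608), with Ensembl genes alone (log2 fold change 0.26, adjusted p = 0.271) and with the length and GC correction (0.17, adjusted p = 0.537).

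Of the genes for H3K9 demethylases, which remove the mark, 0 of 10 tested were called higher and 1 lower. The median log2 fold change of -0.21 was -0.11 without KO replicate 6, -0.03 without KO replicates 6 and 8, and -0.41 with Ensembl genes alone. Higher at an unadjusted p under 0.05 were 0 by edgeR, 1 by DESeq2 and 0 by limma-voom, and lower were 2 by each. In either direction 10853, 11021 and 11268 of all 26717 features tested had such a p by these tools. The called gene, Phf2, had 52.5, 49.3, 53.1, 53.9 and 52.1 CPM with AAV9-LMNA, against 67.4, 59.5 and 64.0 CPM in untreated KO. It fell by 0.29 on the log2 scale (SE 0.09; edgeR adjusted p = 0.0320) with separate groups, and of the 8 fits without 1 library only the one without KO replicate 7 called it (adjusted p = 0.0174). Lamina tethers held 1 call higher among 10, with a median of 0.13 that was -0.07 with Ensembl genes alone and -0.12 with the length and GC correction. That gene was Lemd2, which encodes a LEM-domain protein of the inner nuclear membrane, at 41.4, 37.4, 42.0, 38.0 and 38.3 CPM with AAV9-LMNA, against 32.6, 32.4 and 30.1 CPM in untreated KO. The groups did not overlap (log2 fold change 0.31 ± 0.09, SE; adjusted p = 0.0301), but the call held in only 2 of the 8 fits, without KO replicate 6 (0.0381) and without KO replicate 7 (0.0221), and the estimate was 0.11 with Ensembl genes alone. Lbr, the lamin B receptor, which binds HP1, was at 0.26 (adjusted p = 0.0597) and was called higher by DESeq2 and under relative log expression scaling.

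HP1 partners and the genes for H3.3 deposition held 1 call lower among 13 tested. Their median of 0.17 has no steady sign, being -0.04 without KO replicate 6, 0.27 without KO replicate 7 and -0.02 with Ensembl genes alone. Pogz, whose product binds HP1 proteins, had 33.3, 29.1, 29.3, 29.4 and 28.7 CPM with AAV9-LMNA, against 39.1, 39.8 and 43.5 CPM in untreated KO. It fell by 0.45 on the log2 scale (SE 0.09; edgeR adjusted p = 0.00913) with every treated library below every untreated one, and all 8 fits without 1 library kept the call. Daxx, the partner of ATRX, was not called at a log2 fold change of 0.30 (adjusted p = 0.0625), nor were Chaf1a, a subunit of a histone chaperone (0.63, 0.0542), and Smchd1, a silencing factor of the inactive X chromosome (0.32, 0.0610). Under DESeq2, and under edgeR with relative log expression scaling, these 3 genes were called higher. With Ensembl genes alone none of the 3 was called, and Lrif1 of the same list was called lower beside Pogz. Lrif1 was also called lower with no filter on low counts, with at least 1 CPM in 3 libraries and without KO replicate 7. The HUSH complex and MORC genes, which silence retroelements, had 0 calls among 5 by edgeR, DESeq2 and limma-voom, with 0 at an unadjusted p under 0.05 by edgeR, 1 by DESeq2 and 1 by limma-voom, and a median of 0.02 that was -0.17 with Ensembl genes alone. Morc2a averaged 56.7 ± 2.45 CPM with AAV9-LMNA and 59.7 ± 6.82 CPM in untreated KO (SD, n = 5 and 3), and Morc3 averaged 54.5 ± 2.69 CPM with AAV9-LMNA and 45.2 ± 9.48 CPM in untreated KO. Morc3 was called only without KO replicate 7, at 0.47 (edgeR adjusted p = 0.00436). The H4K20 methyltransferases include Kmt5b and Kmt5c, whose products are brought to pericentromeric chromatin by HP1. This list also had 0 calls among 3 by edgeR, DESeq2 and limma-voom, and a median of 0.21. An unadjusted p under 0.05 was found for 1 of the 3 by each tool. Of all 26717 features tested, 10853 by edgeR, 11021 by DESeq2 and 11268 by limma-voom had such a p, in either direction. Kmt5a averaged 103 ± 12.4 CPM with AAV9-LMNA and 107 ± 17.9 CPM in untreated KO, and Kmt5b 74.2 ± 7.28 CPM with AAV9-LMNA and 64.1 ± 4.09 CPM in untreated KO. The 4 pathway genes left untested had few reads: Adnp had 0 to 6, H3f3b 1 to 9, Kdm4d 0 to 4 and Atf7ip2 0 to 3 in any library, for a reason that was not tested.

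**Figure D4:**
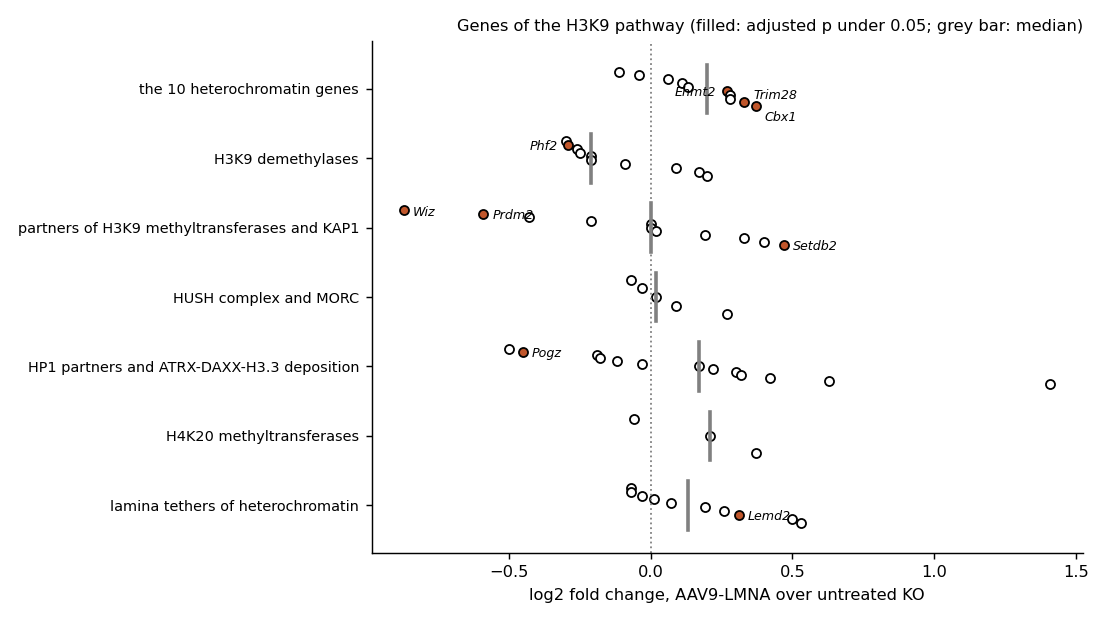
Log2 fold change, AAV9-LMNA over untreated KO (horizontal axis), of the 10 genes in the top row and of 52 other genes of the pathway in 6 lists below, with called genes filled and a grey bar at each list's median. The filled genes furthest from 0 are Wiz and Prdm2, at -0.87 and -0.59.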

How the data were processed

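Heart RNA was sequenced from 8 Lmna-/- mouse libraries. Per the labels' protocols, RNA was isolated with a miRNeasy kit and libraries were made with a TruSeq kit. The authors deposited raw read counts per gene, without strand, over Ensembl and NONCODE genes. Per the submitters' processing notes the tools were HTSeq, TopHat2, limma and edgeR and the builds mm10 and GRCm38, with versions and roles not given in the sources used here. HTSeq summary lines were kept out of library sizes. Coordinates, exons and overlaps came from GENCODE M21 (GRCm38), which holds 53274 of the Ensembl genes. Overlaps with NONCODE genes were not checked.

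Counts were fitted across all features that passed filterByExpr with edgeR 4.0.16 in R 4.3.3 (trimmed mean of M-values scaling, robust quasi-likelihood test, group as the only term, Benjamini-Hochberg adjustment, threshold 0.05). A gene was called where its adjusted p was under 0.05. The SE is the log2 fold change over the root of the F statistic. The steps were tested on simulated data, in which the fold changes set were larger than those called among the 10 genes. Recovery of differences as small as theirs was not tested. Alternatives were relative log expression scaling, DESeq2 1.42.0, limma 3.58.1 (voom), no filter, at least 1 CPM in 3 libraries, Ensembl genes alone, a loess correction for length and GC, and libraries left out. The 10 genes, the pathway lists and the marker lists were chosen with earlier results of these data known. Named are all 10 genes, Lmna, genes overlapping them, up to 6 called genes of each pathway list by p, or the 2 most abundant where none was called. Daxx, Chaf1a, Smchd1, Lbr, Lrif1, Prdm16, Atf7ip, Mecom and Kdm7a were named after their values were seen. Suv39h2, Cbx3 and Suv39h1 had the fewest reads and the largest SE of the 10, and the part of depth in this was not tested.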

Additional observations from a re-analysis of the deposited data

Results flagged for a closer look

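In the AAV9-LMNA group of 5, 26 sets of values were searched for a library far from the others, and 6 were found. Chance gives about 1 in 20 for a single set. The sets share the same libraries and are not independent, so no excess over chance can be read from this count. Replicate 5 stood apart in both dimethyl enzyme genes, highest in Ehmt1 at 69.6 CPM (the others at 61.3 to 62.7) and lowest in Ehmt2 at 102 CPM (the others at 111 to 115). Its Ehmt1 share of the pair, per kilobase of exon, was accordingly the highest at 31.6% (the others at 26.7% to 27.5%). Replicate 2 was highest in Cbx1 at 35.8 CPM (the others at 30.6 to 31.8) and lowest in Morc2a at 52.5 CPM (the others at 57.0 to 58.5). Replicate 1 was highest in Pogz at 33.3 CPM (the others at 28.7 to 29.4).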

How the results depend on the processing

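Scaling by relative log expression, DESeq2 and limma-voom called the same 3 genes, Ehmt2, Cbx1 and Trim28. Without a filter on low counts the 3 called were Cbx1, Cbx5 and Trim28. The count of the 10 genes called higher was 0 with at least 1 CPM in 3 libraries and 0 with Ensembl genes alone. It was 1 with the length and GC correction and 0 to 4 without 1 library. Calls over all 26717 features numbered 6858 (2843 higher, 4015 lower), of which 2693 higher and 934 lower were Ensembl genes. Over Ensembl genes alone they were 1967 (660 higher, 1307 lower), and 1189 (330 higher, 859 lower) with the length and GC correction. Over all features they were 2143 without KO replicates 6 and 8, and 4216 to 10033 without 1 library. Calls among the demethylases, all lower, were 1 in the main comparison and 0 with no filter. They were 2 with at least 1 CPM, 3 with Ensembl genes alone, 0 with the correction and 0 to 3 without 1 library. Kdm7a was among those called with at least 1 CPM and with Ensembl genes alone. For HP1 partners and H3.3 genes, the main comparison gave 0 higher and 1 lower. Relative log expression scaling and DESeq2 each gave 3 higher and 1 lower. With no filter there were 1 higher and 2 lower, and with the correction 1 higher and 1 lower. At least 1 CPM gave 0 higher and 2 lower, as did Ensembl genes alone. Fits without 1 library gave 1 to 3 calls. Calls among lamina tethers, all higher, were 1 in the main comparison, 2 with relative log expression scaling and 2 with DESeq2. They were 0 with Ensembl genes alone, 0 with the correction and 0 to 2 without 1 library. The H4K20 list had 0 to 1 calls without 1 library, as had the HUSH and MORC list, and the methyltransferase partners had 2 to 4. The shares, in percentage points AAV9-LMNA minus untreated KO, were 0.53 for Cbx1, 0.63 for Cbx3 and -1.31 for Ehmt1 without KO replicates 6 and 8. Without 1 library they ran from 1.53 to 2.75 for Cbx1, -2.58 to -0.89 for Cbx3, -1.2 to 0.15 for Cbx5, -3.31 to 1.71 for Suv39h1 and -6.27 to -3.79 for Ehmt1. Pogz stood at -0.40 without KO replicates 6 and 8, and Phf2 lost its call with the correction (-0.30, edgeR adjusted p = 0.0786). The cause of these differences was not tested. Leaving out libraries also leaves fewer samples, and without KO replicates 6 and 8 the lone untreated library is assumed to vary like the treated ones. Lmna itself was not called in that fit, at a log2 fold change of 2.56, so counts of calls from it cannot show which genes depend on those libraries. No paired analysis was possible because the groups share no replicate numbers.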
